A study of Rattus norvegicus with 3 samples.

Results

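The genes described here are 9 transcription factors that set or mark the macrophage state: Spi1, Cebpa, Cebpb, Bhlhe41, Bhlhe40, Pparg, Maf, Klf2 and Klf4. They were listed by name for their known roles and found through the gene symbols of the array's platform annotation. All 9 were measured, each by 1 probe, among 15925 named genes. The cells were NR8383, an established line of rat alveolar macrophages, the phagocytes that live on the inner surface of the lung. They were exposed for 24 h to single-wall carbon nanotubes free of impurities, either the kind labelled CNT-2 or the kind labelled CNT-1, at 0.1 mg/mL in a working solution with 1 mg/mL bovine serum albumin. Control cells were kept for the same 24 h, named in one label as untreated and in another as the albumin solvent control, so whether they received albumin was not settled. The labels do not say in what the nanotube kinds differ.

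Macrophage identity rests on a small set of factors. PU.1, the product of Spi1, and the C/EBP factors open and mark the regulatory DNA of myeloid cells. In mice, alveolar macrophages additionally need the lipid-sensing nuclear receptor PPAR gamma, induced by the cytokine GM-CSF, and the related basic helix-loop-helix repressors BHLHE40 and BHLHE41, which sustain their renewal and dampen Maf. Maf itself restrains renewal in other mouse macrophages, while KLF2 and KLF4 are zinc finger factors that temper or steer inflammatory activation.

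RNA was measured on 1-colour Agilent arrays, and the deposited table held 1 column for each group, and no p-value or replicate error can accompany a difference between them. Each value is relative to a per-probe baseline that is none of the 3 columns. The scale is presumed to be log2. The centring removed the level of each gene, so levels of different genes cannot be set against each other, and whether the cells express the markers of alveolar macrophages could not be checked. A difference of at least 1 log2 unit, which is 2-fold on that scale, was used as the size threshold. A gene measured by several probes has the mean over them, with the probe SD as technical spread. The median probe SD over 3909 genes with more than 1 probe was 0.19 when CNT-2 was set against control and 0.08 when CNT-1 was. Between the exposures it was 0.17. Each of the 9 genes has 1 probe and so no probe SD of its own. In all, 10.1% of genes were past the threshold on the higher side and 6.56% on the lower side in CNT-2 against control. In CNT-1 against control these shares were 1.16% and 2.15%, and in CNT-2 against CNT-1 they were 9.32% and 4.65%. The split depended on the scaling. In CNT-2 against control 1616 genes were higher and 1045 lower, but 989 and 1844 with each column centred on its 75th percentile. In CNT-1 against control 184 and 342 genes became 586 and 592 after quantile normalization, and in CNT-2 against CNT-1 1484 and 740 became 838 and 1385 with 75th percentile centring. The median over all genes was 0.04 for CNT-2 minus control and became -0.28 under 75th percentile and -0.20 under spike-in centring, so a value near 0 in CNT-2 has no settled sign. For CNT-2 minus CNT-1 it was 0.15 and became -0.17 and -0.13 under the same centrings, and for CNT-1 minus control -0.04 and 0.08 after quantile normalization.

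Of the 9 genes, Bhlhe41 and Bhlhe40 lay furthest from control in CNT-2, by 2.31 and 0.95, with Bhlhe40 under the threshold. They encode closely related repressors that bind the E-box CACGTG. Both of their RefSeq promoter windows, 250 bases before to 50 bases after the annotated start on assembly GRCr8, hold this E-box, shown in capitals. The Bhlhe41 window is chr4:180569306-180569605 on the minus strand and the Bhlhe40 window chr4:143174200-143174499 on the plus strand, both written 5′ to 3′ along the gene.
Bhlhe41: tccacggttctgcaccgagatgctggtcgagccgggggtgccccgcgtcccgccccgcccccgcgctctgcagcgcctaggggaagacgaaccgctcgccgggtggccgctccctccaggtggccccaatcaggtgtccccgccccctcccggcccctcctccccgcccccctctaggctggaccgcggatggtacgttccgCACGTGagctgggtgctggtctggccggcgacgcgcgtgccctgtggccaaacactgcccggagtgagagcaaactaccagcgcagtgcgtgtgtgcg
Bhlhe40: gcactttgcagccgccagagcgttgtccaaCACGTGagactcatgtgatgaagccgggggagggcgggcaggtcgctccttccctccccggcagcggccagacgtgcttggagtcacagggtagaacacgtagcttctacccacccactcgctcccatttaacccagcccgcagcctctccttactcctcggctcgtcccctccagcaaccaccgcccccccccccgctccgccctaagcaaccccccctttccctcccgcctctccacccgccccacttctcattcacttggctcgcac
Counted from the annotated start, the E-box begins at position -48 in Bhlhe41 and at -220 in Bhlhe40. Of the 9 genes, 7 had a window, 8 windows in all. These 2 genes, with 1 window each, were the ones with a CACGTG match on either strand, against 6.4% of all 33469 windows. Other motifs were searched in the same windows. The KLF letters CACCC matched in 6 of the 7 genes, and 54.9% of all windows hold them. The C/EBP, PU.1, AP-1 and MAF half-site motifs matched in 1 gene each, and the nuclear receptor half-site and CRE motifs in 0. Since CACGTG contains ACGTG, a form of the core of the hypoxia response element, each E-box also counts as a match of those letters on both strands. Outside its E-box the Bhlhe40 window held 2 further ACGTG matches, at positions -149 and -124, and the Bhlhe41 window none, while 19.3% of all windows hold ACGTG at least once. The form GCGTG was not counted, and the Bhlhe41 window holds it outside its E-box. These matches describe letters in the windows and not binding.

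**Figure D1:**
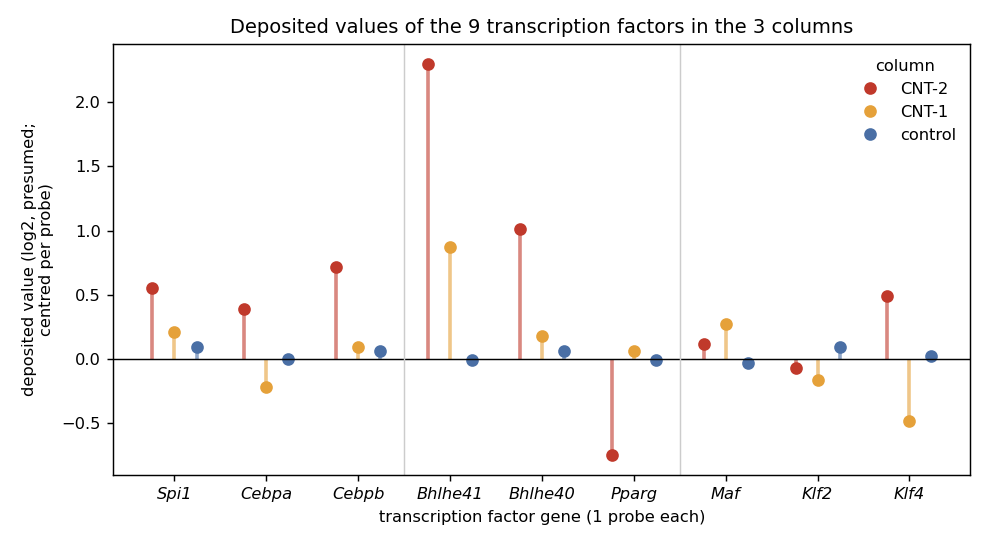
Deposited values (presumed log2, centred per probe) of the 9 transcription factors, with 1 point per column and gene in the order CNT-2, CNT-1, control. The highest point is Bhlhe41 in CNT-2 at 2.30 and the lowest Pparg in CNT-2 at -0.75, while all control points lie between -0.03 and 0.10.

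In CNT-2 cells 7 of the 9 genes were above control, as were most of all genes. Their median difference was 0.46 against 0.04 over all genes. In CNT-1 cells 6 of 9 were above control, while most of all genes lay below it. The median was 0.06 against -0.04 over all genes. Past the threshold was 1 of 9 genes in CNT-2, Bhlhe41 on the higher side, and 0 of 9 in CNT-1. The share on the higher side over all genes was 10.1% for CNT-2 and 1.16% for CNT-1, so the count for the 9 genes was near the background. In bulk RNA, fewer cells of a type and less RNA per cell cannot be told apart.

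Bhlhe41 stood furthest from control of the 9. Its value was 2.30 in CNT-2, 0.875 in CNT-1 and -0.008 in the control. That put CNT-2 highest, CNT-1 between and the control at its baseline. The difference from control was 2.31 in CNT-2, a 4.96-fold higher value on the presumed scale, and 0.88 in CNT-1, 1.84-fold. Among all genes 2.0% lay above it in CNT-2 and 1.6% in CNT-1. Its rank was thus similar in both exposures, although the differences were of unequal size. The lowest CNT-2 difference over the other scalings and settings was 1.45, after quantile normalization. Under that scaling the CNT-1 difference was 1.26, which passed the threshold.

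Bhlhe40, the paralogue, was at 1.015 in CNT-2, 0.18 in CNT-1 and 0.07 in the control. CNT-2 was again highest, and CNT-1 lay near the control. The difference from control was 0.95 in CNT-2, just under the threshold, and 0.12 in CNT-1. In CNT-2 10.9% of genes lay above it. Measured from the authors' baseline without subtracting the control, the CNT-2 value passed the threshold, while the difference was 0.63 with 75th percentile centring and 0.365 after quantile normalization.

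Pparg, the lipid-sensing receptor induced by GM-CSF, went the other way in CNT-2. Its value was -0.75 in CNT-2, 0.06 in CNT-1 and -0.003 in the control. The difference was -0.74 in CNT-2, with 10.3% of genes further below, and 0.06 in CNT-1. With 75th percentile centring the CNT-2 difference was -1.06 and past the threshold, with spike-in centring it was -0.99, and after quantile normalization it was -0.31. Its direction in CNT-2 was negative under all 11 other settings tried for it. Of these, the probe rules, probe filters and natural log could not change the sign of a gene with 1 probe. Platform symbols left its value the same.

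The lineage factors were modestly above control in CNT-2. Spi1, which encodes PU.1, was at 0.56 in CNT-2, 0.21 in CNT-1 and 0.10 in the control, with a difference of 0.46 in CNT-2 and 0.11 in CNT-1. Cebpb, the C/EBP member induced by inflammatory stimuli, was at 0.72 in CNT-2, 0.10 in CNT-1 and 0.06 in the control, with differences of 0.66 and 0.04. Cebpa, a driver of myeloid differentiation, was at 0.39 in CNT-2, -0.22 in CNT-1 and 0.002 in the control. Its differences, 0.385 in CNT-2 and -0.22 in CNT-1, had opposite signs. For these 3 genes between 17.7% and 28.9% of all genes lay higher in CNT-2. Their CNT-2 differences stayed positive under the 75th percentile centring, at 0.14 for Spi1, 0.34 for Cebpb and 0.07 for Cebpa, and after quantile normalization, at 0.095, 0.23 and 0.24 for the same genes.

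Klf4, a factor of monocyte differentiation, likewise lay above control in CNT-2 and below it in CNT-1. Its value was 0.495 in CNT-2, -0.48 in CNT-1 and 0.03 in the control. The difference was 0.47 in CNT-2, where 24.8% of genes lay higher, and -0.51 in CNT-1, where 8.0% of genes lay lower. The CNT-2 difference was 0.15 with 75th percentile centring, 0.20 after quantile normalization and 0.22 with spike-in centring. Klf2, a KLF that restrains inflammatory activation, was at -0.07 in CNT-2, -0.16 in CNT-1 and 0.10 in the control, so both exposures were slightly below it, with differences of -0.165 in CNT-2 and -0.26 in CNT-1. Maf, the factor that BHLHE40 and BHLHE41 dampen in mice, was at 0.12 in CNT-2, 0.28 in CNT-1 and -0.03 in the control. The Maf difference was 0.31 in CNT-1, with 9.7% of genes higher, and 0.15 in CNT-2, where 75th percentile centring turned it to -0.165 and spike-in centring to -0.09. In CNT-2, 74.9% of genes lay at least as far from 0 as Maf and 72.9% as Klf2.

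In the control column all 9 probes lay within 0.1 of 0, and none within 0.02 of the negative-control probe, which was at 0.16 there. Of all named probes 72.6% lay within 0.1 of 0 in the control, and 14.5% lay within 0.02 of the negative-control probe. The nearest of the 9 were Spi1 and Klf2, each 0.06 away. In the CNT-2 column the negative-control probe was at 0.05 and in the CNT-1 column at -0.11. The 10 spike-in probes, which report added RNA, differed from control by 0.225 ± 0.103 in CNT-2 and by -0.05 ± 0.07 in CNT-1 (SD over probes). Their part in the 9 genes' differences was not tested.

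**Figure D2:**
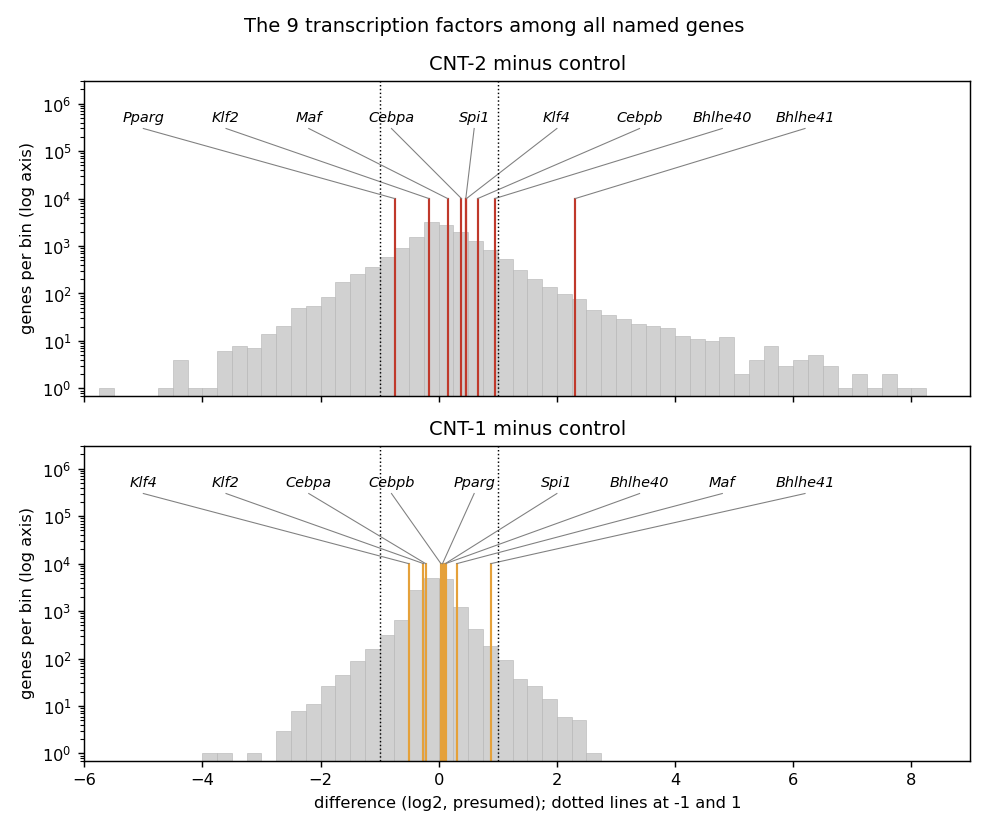
Number of named genes per bin of the difference from control (presumed log2, logarithmic vertical axis), for CNT-2 above and CNT-1 below, with coloured lines at the 9 transcription factors. Bhlhe41 lies in the upper tail of both panels, with 2.0% of genes above it in CNT-2 and 1.6% in CNT-1. It is past the dotted line at 1 in CNT-2 only, and the other 8 lie between the dotted lines at -1 and 1 in both.

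Set against CNT-1, CNT-2 cells were past the threshold for 1 of the 9 genes, Bhlhe41, by 1.43, where 9.32% of all genes were past it on the higher side. Klf4 followed at 0.98, Bhlhe40 at 0.83, Cebpb at 0.62 and Cebpa at 0.61. After quantile normalization Klf4 was at 0.76, Bhlhe40 at 0.20, Cebpb at 0.17 and Cebpa at 0.40, and with 75th percentile centring Cebpb was at 0.298 and Cebpa at 0.283. Spi1 was at 0.35, or -0.06 after quantile normalization, and Klf2 at 0.09, or -0.23 with 75th percentile centring. Maf was at -0.155 and Pparg at -0.81. The median of the 9 was 0.61, against 0.15 over all genes. After quantile normalization the Bhlhe41 difference was 0.185 and no longer past the threshold, so the size of its excess over CNT-1 depended on the scaling. Pparg was past the threshold on the lower side under 75th percentile centring, at -1.13, and under spike-in centring, at -1.09.

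**Figure D3:**
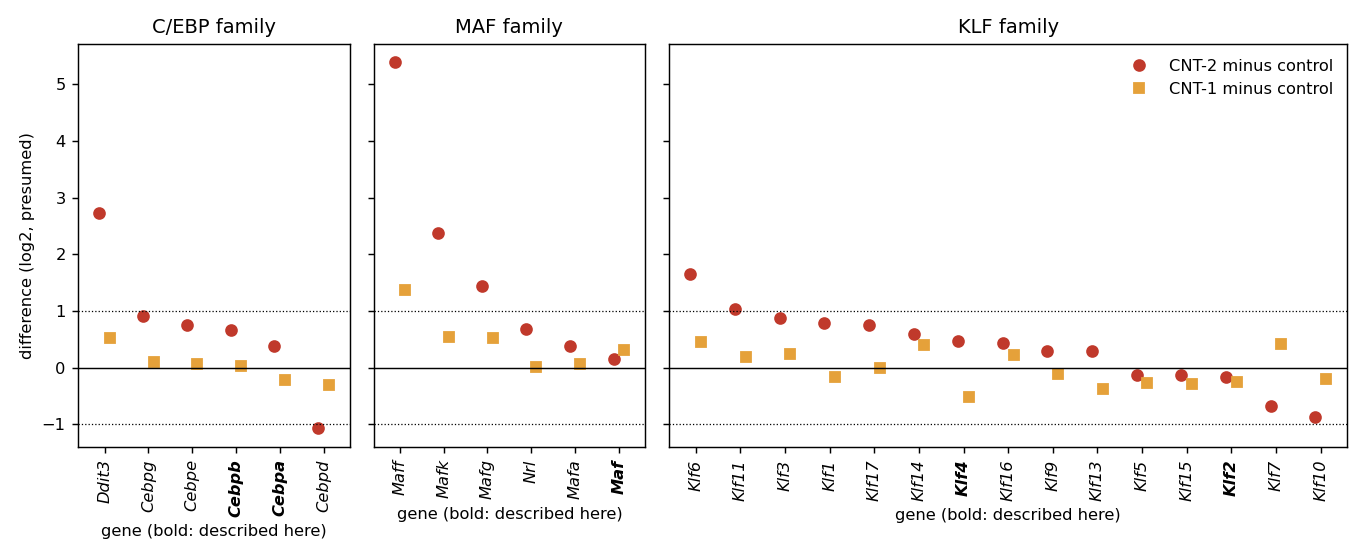
Difference from control (presumed log2) of each measured gene of the C/EBP, MAF and KLF families, with a circle for CNT-2 and a square for CNT-1, ordered by the CNT-2 difference and with the genes described here in bold. Maff at 5.39, Ddit3 at 2.73, Mafk at 2.37, Klf6 at 1.65, Mafg at 1.445 and Klf11 at 1.04 lie above the dotted line at 1 in CNT-2, and none of the bold genes does.

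Relatives of Maf, of the C/EBP factors and of the KLFs included genes further above control in CNT-2 than Maf, Cebpa, Cebpb, Klf2 and Klf4 were. The lists used from here on were chosen with earlier results of these data known. In the MAF family 3 of the 5 relatives of Maf were past the threshold on the higher side in CNT-2, against 10.1% of all genes. In CNT-1 1 of the 5 was, against 1.16%. The relatives past it were small MAF proteins, which lack an activation domain and pair with CNC and AP-1 factors. Maff was at 5.34 in CNT-2, 1.32 in CNT-1 and -0.05 in the control, a difference of 5.39 in CNT-2 and 1.37 in CNT-1. Mafk was 2.37 above control in CNT-2 and 0.55 in CNT-1, and Mafg 1.445 ± 0.059 and 0.53 ± 0.05 (probe SD, 2 probes). The large MAF relatives Nrl, of photoreceptors, and Mafa, of islet cells, were at 0.69 and 0.38 in CNT-2, under the threshold.

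In the C/EBP family 1 of 4 relatives was past the threshold on each side in CNT-2 and none in CNT-1. Of all genes 10.1% were past it on the higher side and 6.56% on the lower side in CNT-2. Ddit3, the stress-induced partner CHOP, was at 2.73 in CNT-2, 0.52 in CNT-1 and 0.00 in the control. Cebpd, the inducible relative of Cebpb, was at -1.05 in CNT-2, -0.29 in CNT-1 and 0.02 in the control, a difference of -1.07 in CNT-2, opposite in sign to the 0.66 of Cebpb. Cebpe and Cebpg, at 0.76 and 0.92 above control in CNT-2, were under the threshold. Spic, the PU.1 relative of red pulp macrophages, was at -1.99 in CNT-2, -0.12 in CNT-1 and 0.003 in the control, while Spi1 was 0.46 above control in CNT-2.

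Among 13 relatives of Klf2 and Klf4, 2 were past the threshold on the higher side in CNT-2, none on the lower side, and none in CNT-1. Of all genes 10.1% were past it on the higher side in CNT-2, so this count was near the background. Klf6, an injury-induced KLF of macrophages, was 1.65 ± 0.31 above control in CNT-2 and 0.46 ± 0.06 in CNT-1 (probe SD, 5 probes). Klf11 was at 1.04 in CNT-2. The KLF family median was 0.43 in CNT-2 and -0.10 in CNT-1. The CNT-1 median was 0.05 without probes near the negative-control probe. None of the 10 measured relatives and cofactors of Pparg was past the threshold in either exposure, against 16.7% of all genes in CNT-2 and 3.30% in CNT-1. Ppard was 0.53 above control in CNT-2, and Rxra, the dimer partner of PPAR gamma, 0.18, which is inside the shift between scalings.

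**Figure D4:**
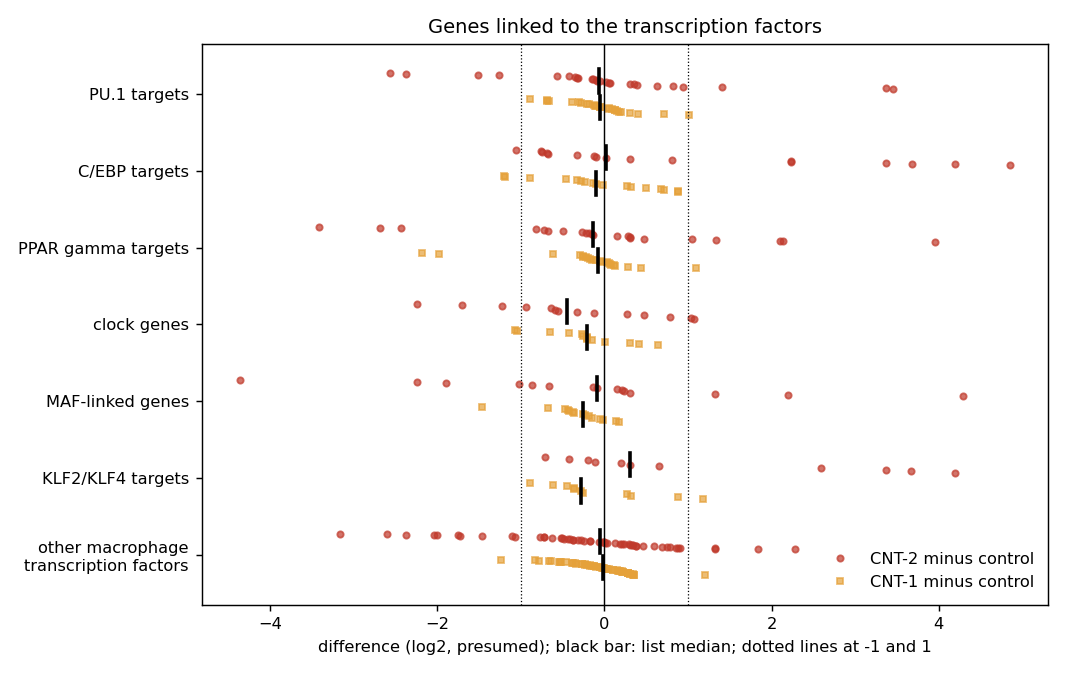
Difference from control (presumed log2) of genes with a textbook link to the factors, with circles for CNT-2 and squares for CNT-1, 1 point per measured gene and a black bar at the list median. In CNT-2 the points spread from -4.355 for Selenop to 4.85 for Nos2, while the CNT-2 medians lie between -0.44 and 0.31.

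Genes with a textbook link to these factors lay on both sides of control in CNT-2. Of 26 measured PU.1 targets 3 were past the threshold on the higher side and 4 on the lower side in CNT-2, 26.9% in all against 16.7% of all genes, with a median of -0.07. In CNT-1 1 of 26, Itgam at 1.02, was past it, 3.8% against 3.30% of all genes. The adhesion integrin subunit Itgam, the endotoxin co-receptor Cd14 and the lipopeptide receptor Tlr2 were higher in CNT-2, by 3.46, 3.37 ± 0.16 (probe SD, 2 probes) and 1.41. Lower were the receptor of M-CSF, Csf1r, by -1.25 ± 0.60 (probe SD, 2 probes), the shared chain of the GM-CSF receptor, Csf2rb, by -1.51, the endotoxin receptor Tlr4, by -2.37, and the Fc receptor Fcgr1a, by -2.56 ± 0.61 (probe SD, 2 probes). For Csf1r the mean control value was 0.52, above the per-probe baseline. Cd14 lay on opposite sides in the exposures, at 3.37 in CNT-2, -0.88 in CNT-1 and 0.007 in the control. The adaptor genes Tyrobp and Fcer1g and the lysozyme gene Lyz2 stayed within 0.4 of control in both exposures.

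The PPAR gamma target list held 22 measured genes, with 5 past the threshold on the higher side and 3 on the lower side in CNT-2, 36.4% in all against 16.7% of all genes. In CNT-1 the counts were 1 and 2, 13.6% against 3.30%. With 75th percentile centring the CNT-2 counts were 4 and 5, so which side held more genes depended on the scaling. Cidec, a lipid droplet protein, was at -2.44 in CNT-2, -0.61 in CNT-1 and -0.005 in the control. Angptl4, a lipoprotein lipase inhibitor, was at -3.42 in CNT-2, -2.18 in CNT-1 and 0.00 in the control, and was thus low in both exposures although Pparg was below control in CNT-2 only. The kinase gene Pdk4 differed by -2.68 ± 3.41 in CNT-2 (probe SD, 2 probes), a spread that exceeds its mean. On the higher side, the fatty acid carrier Fabp4 was at 3.96 in CNT-2, -0.10 in CNT-1 and -0.001 in the control. Fabp5 was 2.14 above control in CNT-2 and 1.09 in CNT-1, the adipokine Adipoq 2.105 in CNT-2 and the cholesterol exporter Abca1 1.33. The fatty acid receptor Cd36, at -0.26 in CNT-2, and the lipase Lpl, at -0.49, were under the threshold.

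Among C/EBP targets 6 of 17 genes were past the threshold on the higher side and 1 on the lower side in CNT-2, 41.2% in all against 16.7% of all genes, with 6 and 4 under 75th percentile centring. They were led by the nitric oxide synthase Nos2 at 4.85, the arginase Arg1 at 4.19, the siderophore-binding Lcn2 at 3.675 and Cd14, which is also in the PU.1 list. The lower gene was Il12b, an interleukin subunit, which differed by -1.06. It was at 0.05 in CNT-2, 0.64 in CNT-1 and 1.10 in the control, a control value above the baseline. The median of the list was 0.02, or -0.29 with 75th percentile centring, and the cytokine genes Il6 and Il1b differed by 0.81 and -0.33. In CNT-1 no C/EBP target was past the threshold on the higher side, and the neutrophil elastase gene Elane, at -1.20, and Csf3, at -1.19, were past it on the lower side. That was 11.8% in all against 3.30% of all genes. Csf3 was at 0.84 in the control column.

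BHLHE40 and BHLHE41 are known to repress clock genes through E-boxes. Of 14 measured clock genes 2 were past the threshold on the higher side and 3 on the lower side in CNT-2, 35.7% in all against 16.7% of all genes. In CNT-1 2 were past it, both on the lower side, 14.3% in all against 3.30%. Dbp, a clock output factor, was at -1.65 in CNT-2, -0.16 in CNT-1 and 0.05 in the control. Nr1d1, the clock repressor REV-ERB alpha, was at -1.59 in CNT-2, -0.39 in CNT-1 and 0.65 in the control, so that its differences of -2.24 and -1.04 include a control value above baseline. Rora, the activator that competes with it, differed by -1.22 in CNT-2 and -1.07 in CNT-1, with a control value of 0.27. Without subtracting the control, neither of these genes was past the threshold in CNT-1, and Rora was not in CNT-2. Cry1 and Nfil3 were 1.07 and 1.04 above control in CNT-2, and Per2 was at -0.94. Of the 2 clock genes on the higher side 1 was left with median centring and 0 with 75th percentile or spike-in centring. The list median was -0.44 in CNT-2 and -0.21 in CNT-1, and the CNT-2 median was 0.07 with only the probes near 0 in the control. Of the 17 listed clock genes, 14 had a promoter window. They are not the same 14 as those measured: Ciart has a window and no value here, and Cry1 a value and no window. CACGTG was held by 3 of them, Nr1d1, Tef and Ciart, against 6.4% of all windows, and not by Dbp within its window.

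Maf-linked genes of resident macrophages were past the threshold in CNT-2 for 3 of 15 on the higher side and 4 on the lower side, 46.7% in all against 16.7% of all genes. Selenop, a selenium carrier, was at -4.35 in CNT-2, -1.45 in CNT-1 and 0.008 in the control. The mannose receptor Mrc1 differed by -2.24 ± 0.13 and the transporter Slco2b1 by -1.89 ± 0.06 in CNT-2 (probe SD, 2 probes each), and the complement gene C1qa by -1.025 ± 0.05 (probe SD, 2 probes). Gas6, a bridge to dying cells, was at 4.29 in CNT-2, 0.18 in CNT-1 and -0.003 in the control, and F13a1 and Folr2 were 2.20 and 1.32 above control in CNT-2. Maf itself differed by 0.15 in CNT-2. In CNT-1 13 of the 15 genes lay below control, as did most of all genes, with a median of -0.25 against -0.04 over all genes. The negative-control probe itself differed by -0.27 in CNT-1, and the gene at the median, Ccl24, was read by a probe close to it. The CNT-1 median was -0.29 without such probes and -0.125 without subtracting the control.

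KLF2 and KLF4 target genes were past the threshold on the higher side for 4 of 11 in CNT-2, none on the lower side, 36.4% against 10.1% of all genes on the higher side. In CNT-1 1 of 11 was, 9.1% against 1.16%. The endothelial nitric oxide synthase Nos3 was at 3.73 in CNT-2, 1.25 in CNT-1 and 0.07 in the control. The integrin subunit Itgb7 was at 2.58 in CNT-2, -0.63 in CNT-1 and -0.01 in the control, on opposite sides as Klf4 was, and the other 2 genes past the threshold were Arg1 and Cd14, which stand in other lists as well. The median of 0.31 in CNT-2 became -0.005 with 75th percentile centring.

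Other transcription factors of macrophages, 54 measured genes outside the 9, were past the threshold in CNT-2 for 4 on the higher side and 10 on the lower side, 25.9% in all against 16.7% of all genes. In CNT-1 1 on each side was, 3.7% in all against 3.30%, so near the background. The furthest below control in CNT-2 were Id3, an inhibitor of basic helix-loop-helix factors, at -3.16 ± 0.05 (probe SD, 3 probes), Batf3 at -2.60, the retinoic acid receptor Rara at -2.38 and Id1 at -2.04. Id3 was at -3.16 in CNT-2, -0.83 in CNT-1 and -0.006 in the control. Rara was also past the threshold in CNT-1, at -1.23. Runx1, which acts upstream of Spi1 in blood formation, differed by -1.75 in CNT-2 and -0.64 in CNT-1, and Myc, a driver of cell growth and division, by -1.46 and -0.53. On the higher side in CNT-2 were the orphan receptor Nr4a3 at 2.285 ± 0.655 (probe SD, 3 probes), Stat5b, which carries the GM-CSF signal, at 1.835, Ets2 at 1.33 ± 0.42 (probe SD, 2 probes) and Atf5 at 1.32. The gene on the higher side in CNT-1 was the hypoxia factor Epas1, at 0.085 in CNT-2, 1.29 in CNT-1 and 0.08 in the control. The list median was -0.05 in CNT-2 and -0.02 in CNT-1. The CNT-1 median was above 0 under 4 other settings, among them 0.11 after quantile normalization.

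Alveolar macrophage markers and markers of other cells were read beside these values. Of 17 alveolar macrophage markers 3 were past the threshold on the higher side and 3 on the lower side in CNT-2, 35.3% in all against 16.7% of all genes, with a median of 0.39, or -0.095 after quantile normalization. In CNT-1 the counts were 0 and 1, 5.9% in all against 3.30%. The 1 lower gene, Car4, was at 1.81 in CNT-2, -0.08 in CNT-1 and 1.01 in the control, a control value above the baseline. With 1 column per group, which column its CNT-1 difference comes from cannot be told. In CNT-2 the higher markers were Fabp4, Cd9 and Cd63, by 3.96, 1.53 and 1.18. The lower ones were Mrc1, by -2.24 ± 0.13, Cd200r1, by -1.57, and Csf1r, by -1.25 ± 0.60 (probe SD, 2 probes for Mrc1 and Csf1r). The scavenger receptor Marco differed by 0.07 in CNT-2. Of 33 markers of lung epithelium, lymphocytes, granulocytes, fibroblasts, endothelium and other blood cells, 2 were higher and 3 lower in CNT-2. That was 15.2% in all against 16.7% of all genes, so near the background, with a median of 0.00. In CNT-1 1 was higher and 2 lower, 9.1% against 3.30%, with a median of -0.175. In CNT-2 the higher ones were Dcn of fibroblasts, by 2.56, and Krt18 of epithelium, by 1.34, while the fibroblast genes Pdgfra and Col1a1 differed by -0.60 and 0.12 and the epithelial genes Epcam and Scgb1a1 by -0.31 each. The lower ones in CNT-2 were Vwf of endothelium, by -1.725 ± 1.656 (probe SD, 2 probes), Nkg7 of cytotoxic lymphocytes, by -1.67, and Cd79a of B cells, by -1.37. In CNT-1 Epcam was higher, by 1.61, while Krt18 and Sftpb differed by -0.18 and -0.595, and Cd2 of T cells and Elane of granulocytes were lower, by -1.42 and -1.20, with Cd2 at 0.94 in the control. The surfactant gene Sftpc differed by -0.008 in CNT-2 and -0.16 in CNT-1. The T cell gene Cd3e, at 0.42 in the control column, differed by -0.71 and -0.79. Centring leaves no level from which a marker could be called absent. Their part in the differences above was not tested.

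Likeness of pattern was measured as the Euclidean distance over CNT-2 minus control and CNT-1 minus control, among the 3909 genes with at least 2 probes, and rests on 3 columns. Bhlhe41 was the most isolated, with no gene within 0.1. Nearest to it were Usp18, an interferon-induced deconjugating enzyme, at a distance of 0.12, and Tecpr1, an autophagy protein, at 0.15. Spi1 had 168 genes within 0.1, nearest Slc44a2 and Trappc4, and Klf4 had 7, nearest Mlc1 and Hs6st2. Next to Pparg lay Ccnd1, a G1 cyclin, which differed by -0.76 ± 0.02 in CNT-2 and 0.07 ± 0.03 in CNT-1 (probe SD, 2 probes), and Cox7c, whose probes disagreed with a probe SD of 0.92 in CNT-2. Nearest to Bhlhe40 were Rab10 and Zfr, to Cebpb Eya3 and Atg12, to Cebpa Dhx32 and Rnf182, to Klf2 Chn1 and Itgb5, and to Maf Slc24a3 and Trim55.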

How the data were processed

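The samples were 1-colour Cy3 Agilent arrays of NR8383 RNA, and the submitters' processing notes name Agilent Feature Extraction 10.7.3.1 as software. The deposited log2 values, 41103 probes in 3 columns, were centred per probe on an unstated baseline. This was read from the values, which had both signs and column medians of 0.06 for CNT-2, -0.045 for CNT-1 and 0.01 for control. The base of the log is presumed, and no source used here states how the authors normalized the arrays. The design text gives an n of 4 and the labels a replicate number of 4, without saying of what, so each column counted as 1 sample. The number of arrays limits the precision.

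Differences between columns were taken per probe and averaged per gene with pandas 2.3.3, and all 20932 probes with 1 gene symbol were used. Accessions and synonyms of RefSeq assembly GRCr8 updated the symbols: 17424 probes matched by accession, 3105 by symbol and 398 by synonym, and 5 did not match. A further 20171 probes had no symbol. Promoter windows came from RefSeq's GRCr8 table. No test was possible with 1 sample a group. The counting was run on simulated data with planted differences past the threshold and the same small noise in every column. Genes passing without a planted difference were allowed after quantile normalization. The run checks the counting only and says nothing on the spread of the real columns. The members and lists were chosen with earlier results of these data known. Named genes were the 9, up to 4 of each list on each side past the threshold, genes paired with a member by role, and the 2 nearest patterns of each member. Alternatives were other scalings, probe rules, names, a 1.5-fold threshold, no control subtraction and a natural log.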

Additional observations from a re-analysis of the deposited data

How the results depend on the processing

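With 1 column per group, leaving out replicates was not possible, and no value carries the spread between cultures. No paired analysis was possible because each group has 1 column and all labels carry the same replicate number.

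The counts and medians of the 9 genes kept within 1.5 times, or within the median probe SD, under median centring. Both other probe rules and both probe filters could not change them. Each of the 9 genes has 1 probe, which is near 0 in the control and not close to the negative-control probe. Platform symbols named the same probes and gave the same values. With 75th percentile centring 1 gene, Pparg, was lower in CNT-2 against control and against CNT-1, and the medians were 0.14 and 0.28. Of all genes 17.8% and 14.0% were then past the threshold in either direction. Spike-in centring gave 0.21 and 0.325, with 1 gene lower against CNT-1, where 13.6% of all genes passed in either direction. Quantile normalization gives the narrow control column the spread of the others by construction. It gave medians of 0.23 in CNT-2 and 0.15 in CNT-1, each set against control, and 0.17 between the exposures. With it 1 gene was higher in CNT-1 and 0 in CNT-2 against CNT-1, where 7.40% and 4.82% of all genes passed in either direction. At a 1.5-fold threshold 3 genes were higher and 1 lower in CNT-2, where 34.0% of all genes passed in either direction. In CNT-1 1 was higher, where 10.3% of all genes passed. In CNT-2 against CNT-1 5 were higher and 1 lower, where 31.1% of all genes passed. Chosen after seeing the data were 2 settings. Without subtracting the control 2 genes were higher in CNT-2, where 16.6% of all genes passed in either direction. Reading the values as natural logs gave 2 higher and 1 lower in CNT-2, 1 higher in CNT-1, and 3 higher and 1 lower in CNT-2 against CNT-1, with CNT-2 medians of 0.66 and 0.88. The shares of all genes past it in either direction were 28.1%, 7.45% and 24.6% in the same order. The cause of these shifts was not tested, beyond the constant that each centring adds.

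Counts of all genes past the threshold moved by over 1.5 times as the report gives for 75th percentile and quantile scaling. Spike-in centring gave 1100 higher and 1618 lower in CNT-2 and 897 and 1276 in CNT-2 against CNT-1, where median centring gave 1213 and 926. Quantile normalization gave 863 and 544 in CNT-2 and 436 and 331 in CNT-2 against CNT-1. In CNT-1, probes near 0 in control gave 128 and 118 and no control subtraction 247 and 197. The 1.5-fold threshold gave 3220 and 2193 in CNT-2, 614 and 1024 in CNT-1 and 3264 and 1695 between them. Natural logs gave 2660 and 1813, 435 and 752, and 2594 and 1328 in the same order. The Maf target median of -0.09 in CNT-2 was 0.06 without probes near the negative control, and the PPAR gamma target median of -0.14 was 0.05 after quantile normalization. Bhlhe41 in CNT-2 stayed past the threshold against control under all 12 settings tried. The probe rules, probe filters, 1.5-fold threshold and natural log could not have taken a gene with 1 probe below it. Platform symbols left its value the same.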

Other observations

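Signals that set alveolar macrophage identity were described by a list of ligands, receptors and mediators of the GM-CSF, M-CSF and TGF-beta pathways. Of 19 measured genes 5 were past the threshold on the higher side and 2 on the lower side in CNT-2, 36.8% in all against 16.7% of all genes. In CNT-1 the counts were 0 and 1, 5.3% in all against 3.30%. The 2 genes on the lower side in CNT-2 were the receptor genes Csf1r and Csf2rb, given in the report. Csf1, encoding M-CSF, was at 2.05 in CNT-2, -0.62 in CNT-1 and 0.04 in the control, with a difference of 2.01 ± 0.38 in CNT-2 (probe SD, 2 probes, of which 1 was close to the negative-control probe in the control). Tgfb2 was at 2.03 in CNT-2, -0.50 in CNT-1 and 0.05 in the control. Csf2, encoding GM-CSF, differed by -0.07 in CNT-2 and -0.91 in CNT-1, below the threshold in both. Tgfbr1, a receptor of TGF-beta, was 1.205 ± 0.050 above control in CNT-2 (probe SD, 3 probes), and Itgav, an integrin subunit that helps release TGF-beta, 1.27. The mediator Smad4 differed by 0.001 and -0.002. In CNT-1 14 of the 19 genes lay below control, as did most of all genes, with a median of -0.27 against -0.04 over all genes. The negative-control probe differed by the same -0.27 in CNT-1, and the gene at the median, Tgfb3, was read by a probe close to it, as were Itgb6 and Smad3. The median was -0.19 without such probes and -0.12 without subtracting the control. The CNT-2 median of 0.05 became -0.265 with 75th percentile centring.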
